A study of Mus musculus with 6 samples.

Results

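The miR-10, miR-196 and miR-615 families are the miRNAs encoded inside the Hox gene clusters of the mouse. Members were taken by name from the deposited read tables as every row for miR-10a, miR-10b, miR-196a, miR-196b or miR-615, whichever arm of the hairpin it came from. This gave 11 of the 1055 mature miRNAs listed: miR-10a, miR-10a*, miR-10b, miR-10b*, miR-196a, miR-196a-1*, miR-196a-2*, miR-196b, miR-196b*, miR-615-3p and miR-615-5p. An asterisk marks the passenger arm, the strand of the processed duplex that is usually discarded.

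Small RNA of whole brain was sequenced from 3 wild-type and 3 Adar2-/- female mice of strain 129SV, siblings killed at 5.5 months of age. ADAR2 (gene Adarb1) converts adenosine to inosine in double-stranded RNA, primary miRNA transcripts included. Because loss of the enzyme is lethal soon after birth, both groups were homozygous for the Gria2 R/R allele, which encodes the edited form of a glutamate receptor subunit and rescues the mice. The wild-type group was therefore Gria2 R/R with 2 intact Adar2 copies, and the Adar2-/- group was Gria2 R/R with none. Each library came from a separate animal and held between 12449633 and 23935544 mapped miRNA reads. The genotype of a library could not be checked from miRNA counts.

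Hox genes encode transcription factors that give cells along the head-to-tail axis their position. In the nervous system they are active in the hindbrain and spinal cord and silent in the forebrain. The miRNAs between and within them are known to follow the same regional pattern, and miR-10 and miR-196 are known to bind Hox transcripts. In whole-brain RNA a larger share of expressing cells and more miRNA per cell cannot be told apart, and how much brain stem each dissection held was not measured. Hox mRNA was not measured in these libraries either.

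The mature sequences are shown because the paralogs differ so little that a read must be placed by a single base. They were read from the RefSeq table of GRCm38.p6, in which all 11 members were found, and capitals mark the seed (bases 2 to 8), the part of a miRNA that pairs first with its target. The main arms of the miR-10 and miR-196 paralogs were as follows.
miR-10a: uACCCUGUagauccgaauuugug
miR-10b: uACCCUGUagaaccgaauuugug
miR-196a: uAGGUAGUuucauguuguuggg
miR-196b: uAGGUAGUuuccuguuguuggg
Counting from 1 at the 5′ end, miR-10a and miR-10b differ by U12A, and miR-196a and miR-196b differ by A12C. Both changes lie outside the seed. The seed ACCCUGU was carried by 2 of the 1679 mature names in the RefSeq table, and so was AGGUAGU, so that each paralog pair shares a seed with no other listed miRNA. The nearest relative outside the families was miR-100-5p, at an edit distance of 3 from miR-10a and 4 from miR-10b. The authors' mapping accepted 90% identity, which is wider than the 1 base that separates the paralogs. A read with a sequencing error at base 12 can therefore count for the wrong paralog. An edited A at base 12 is read as G, which matches neither paralog and leaves the read equally close to both. Values for either miRNA of a pair carry that uncertainty.

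The passenger arms and both arms of miR-615 are shown because they tell hairpins apart.
miR-10a*: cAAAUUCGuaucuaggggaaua
miR-10b*: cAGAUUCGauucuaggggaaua
miR-196a-1*: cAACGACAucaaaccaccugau
miR-196a-2*: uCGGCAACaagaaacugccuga
miR-196b*: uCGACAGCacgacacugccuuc
miR-615-3p: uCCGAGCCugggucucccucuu
miR-615-5p: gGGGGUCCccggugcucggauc
The passenger arms of miR-10a and miR-10b differ at 3 positions, A3G, U9A and A10U, of which the first lies in the seed. Mature miR-196a is cut from 2 hairpins with the same main arm, and only the passenger arms separate them.

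The 11 mature miRNAs come from 6 hairpins in 4 Hox clusters. Coordinates are for NCBIM37, and both mature arms were found in the genome sequence at each hairpin. Mir10a (chr11:96178479-96178588, plus strand) lay in the untranslated part of an exon of the single annotated Hoxb4 transcript. Mir10b (chr2:74564127-74564194, plus strand) lay in an intron of 2 of the 7 Hoxd3 transcripts and 1 of the 2 Hoxd4 transcripts, and outside the others. Mir196a-1 (chr11:96126478-96126579, plus strand) was intergenic, 6191 bp from Hoxb9. Mir196a-2 (chr15:102803772-102803881, plus strand) was intergenic, 1447 bp from Hoxc10 and 2988 bp from Hoxc9. Mir196b (chr6:52180080-52180164, minus strand) overlapped Hoxa9, in an intron of 1 transcript and the untranslated exon of another, with Hoxa10 1031 bp upstream. Mir615 (chr15:102845341-102845432, plus strand) lay in an intron of Hoxc5. All 6 hairpins were on the strand of the Hox genes around them.

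**Figure D1:**
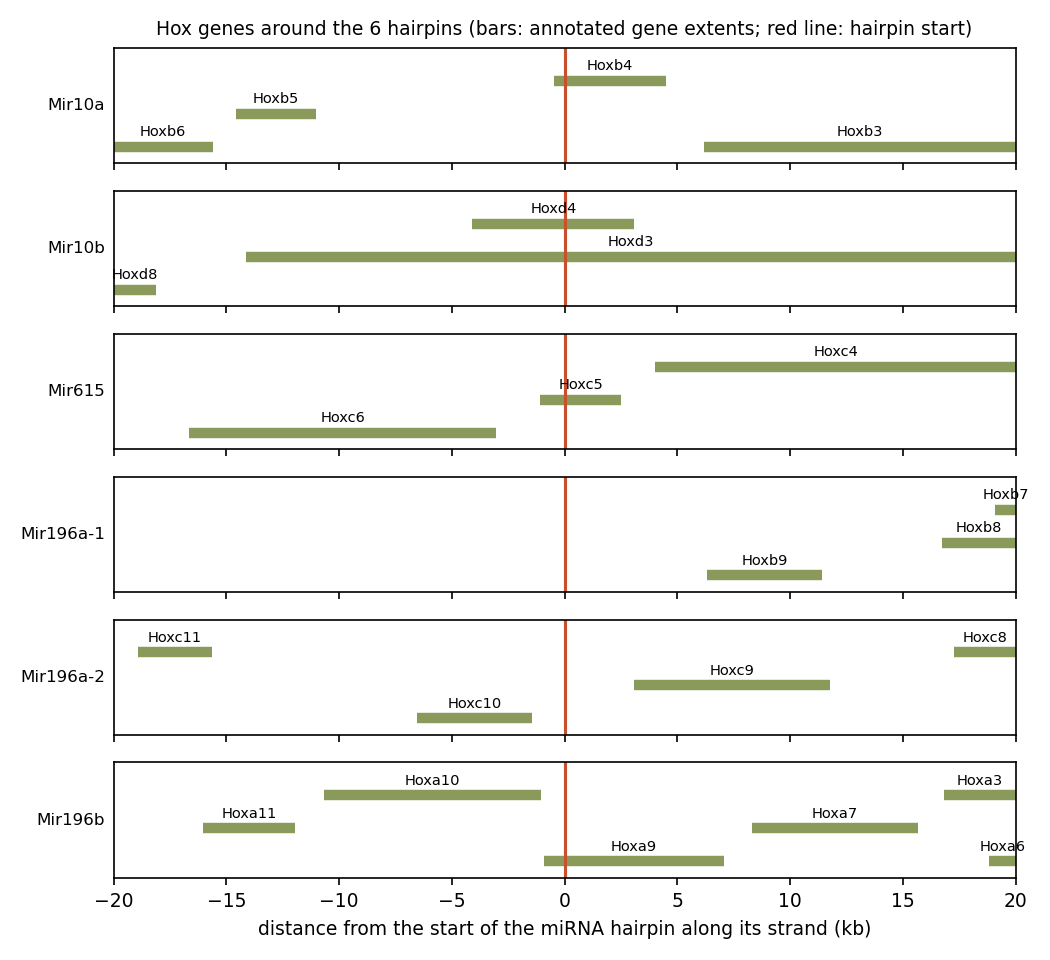
Hox genes within 20 kb of each of the 6 hairpins, placed by distance in kb from the hairpin start along its strand. Bars are the annotated extents of genes, cut at the edge of the plot, and the red line is the hairpin, which falls inside a Hox gene for 4 of the 6 (Mir10a, Mir10b, Mir615 and Mir196b).

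Levels are given in RPM, reads per 1000000 mapped miRNA reads, and because all members are 22 or 23 bases long they can be set beside each other without a length correction. Ligation and amplification bias between sequences was not measured. The members together held between 0.0277% and 0.208% of a library's reads, and miR-10a and miR-10b made up 96.4% to 99.3% of that. By mean RPM over the 6 libraries miR-10b was 99th and miR-10a 137th of 1055, while miR-196a was 480th and miR-196b 516th. Next came miR-10a* (559th), miR-10b* (604th) and miR-615-3p (626th). Within every library the order miR-10b, miR-10a and then all other members held, with more than 10 times as many reads on miR-10a as on any member below it. Counting intervals of miR-196a and miR-196b overlapped in every wild-type library, so their order there was not resolved.

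Only 2 members, miR-10a and miR-10b, had at least 100 reads in every library, the minimum for the test of abundance, and 5 had at least 10 (these plus miR-10a*, miR-196a and miR-196b). A further 3 were read in every library at lower depth. The rare arms miR-196a-1* and miR-615-5p had 5 reads each in all, from 3 libraries each. No read fell on miR-196b*, which allows a level of up to 0.125 to 0.241 RPM per library (3 reads). Intervals and this limit cover counting error only, since reads without molecular identifiers are not independent molecules.

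**Figure D2:**
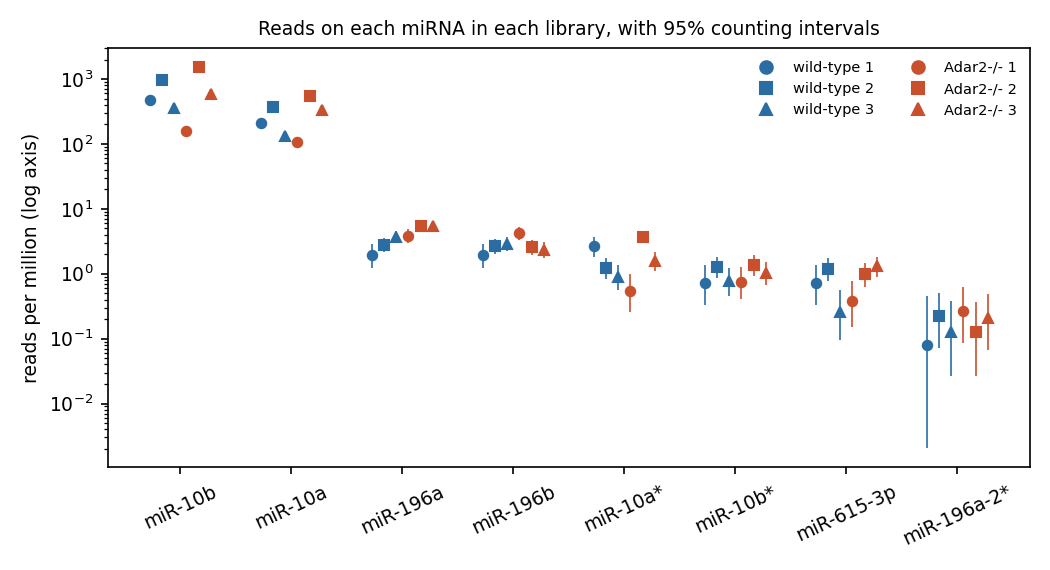
RPM (log axis) for the 8 members read in all 6 libraries, one point per library coloured by genotype and shaped by replicate number, with exact 95% counting intervals. miR-10b and miR-10a stand above 100 RPM in every library and the other 6 members below 6 RPM, and only for miR-196a do all Adar2-/- points lie above all wild-type points.

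miR-10b, the paralog from the Hoxd cluster, was the most abundant member and varied more between brains than between genotypes. It was read at 481, 983 and 354 RPM in wild-type replicates 1 to 3 and at 158, 1527 and 579 RPM in Adar2-/- replicates 1 to 3. The Adar2-/- group held both the highest and the lowest library, so the groups overlapped completely. The means were 606 ± 333 RPM in wild type and 755 ± 701 RPM in Adar2-/- (SD, n = 3 each), a ratio of 1.25. With edgeR's quasi-likelihood test the log2 fold change was 0.32 (SE 0.687, 95% interval -1.21 to 1.85, adjusted p = 0.989). The difference of mean log2 RPM had the opposite sign, at -0.085, since the log scale gives more weight to the library at 158 RPM. Without Adar2-/- replicate 2 the fitted log2 fold change was -0.72.

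miR-10a, the paralog from the Hoxb cluster, followed the same pattern at a lower level. It was read at 211, 367 and 132 RPM in the wild-type brains and at 109, 542.5 and 338 RPM in the Adar2-/- brains. Again the lowest and the highest value were both Adar2-/-. The means were 237 ± 119 and 330 ± 217 RPM (SD, n = 3 each), a ratio of 1.39. The edgeR log2 fold change was 0.48 (SE 0.562, 95% interval -0.77 to 1.73, adjusted p = 0.988), and it was -0.083 without Adar2-/- replicate 2. These intervals include both no difference and a difference of more than 2-fold.

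The share of all miRNAs called by this test was 0% of 399, that is 0 miRNAs. There were 13 with p below 0.05 before adjustment, and DESeq2 called 1. Neither miR-10a nor miR-10b, the only members past the read minimum, was among them. Summing the reads of miR-10a and miR-10b, which removes the question of which paralog a read belongs to, gave a log2 fold change of 0.36 (edgeR adjusted p = 0.981). Neither miRNA kept 1 direction across the replicate numbers, which is 1 of the criteria that the study set for a change: the ratio of Adar2-/- to wild type was 0.329, 1.55 and 1.64 for miR-10b and 0.515, 1.48 and 2.56 for miR-10a. Of the 399 tested miRNAs, 16.0% kept 1 direction.

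The 6 libraries fell in the same order for miR-10a as for miR-10b. Adar2-/- replicate 2 was highest for both, followed by wild-type replicate 2, Adar2-/- replicate 3, wild-type replicate 1, wild-type replicate 3 and Adar2-/- replicate 1. Pearson's r of log2 RPM between them was 0.953 over the 6 libraries, and 0.895 over the 4 left without Adar2-/- replicates 1 and 2, the libraries farthest from the median of miR-10b. These points share library, depth and, where a read was misplaced between the paralogs, reads as well. The miR-10 arms did not share this order with miR-196: r of miR-10b was 0.18 with miR-196a and -0.60 with miR-196b, which at n = 6 is given only as a description.

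**Figure D3:**
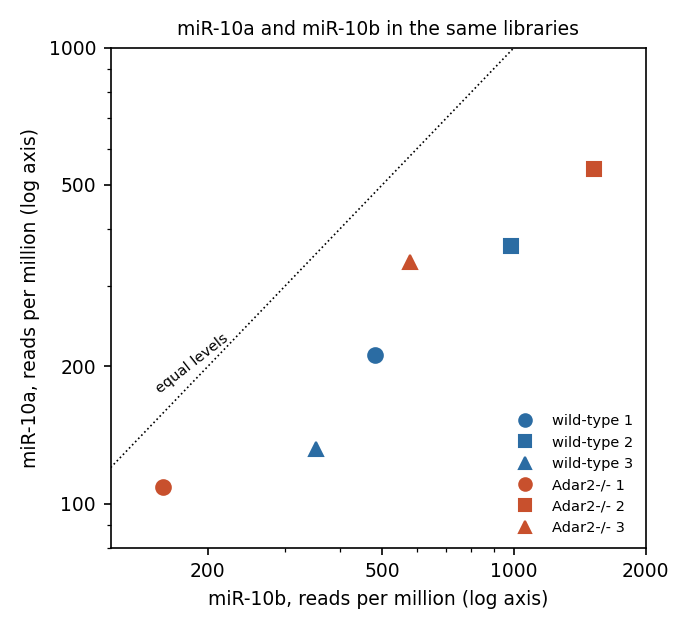
miR-10a against miR-10b in RPM (both axes log), one point per library, with the dotted line marking equal levels. All 6 points lie below the line and rise together from Adar2-/- replicate 1 (158 and 109 RPM for miR-10b and miR-10a) to Adar2-/- replicate 2 (1527 and 542.5 RPM).

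The distance between brains of 1 genotype was large for both miRNAs in comparison with the rest of the table. The SD of log2 RPM within genotype was 1.28 for miR-10b, the fifth largest of 399, and 0.990 for miR-10a, which ranked 22, where the median miRNA had 0.452. In Adar2-/- alone it was 1.64 for miR-10b and 1.19 for miR-10a (ranks 7 and 17), against a median of 0.383. In wild type alone it was 0.757 and 0.738 (ranks 56 and 62), against a median of 0.421. From the lowest to the highest library miR-10b spanned 9.64-fold and miR-10a 4.98-fold, and the median miRNA 2.25-fold. At 2953 reads or more per library, the upper bound of the exact 95% counting interval lay at most 3.67% above the value of miR-10b, far less than these distances.

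**Figure D4:**
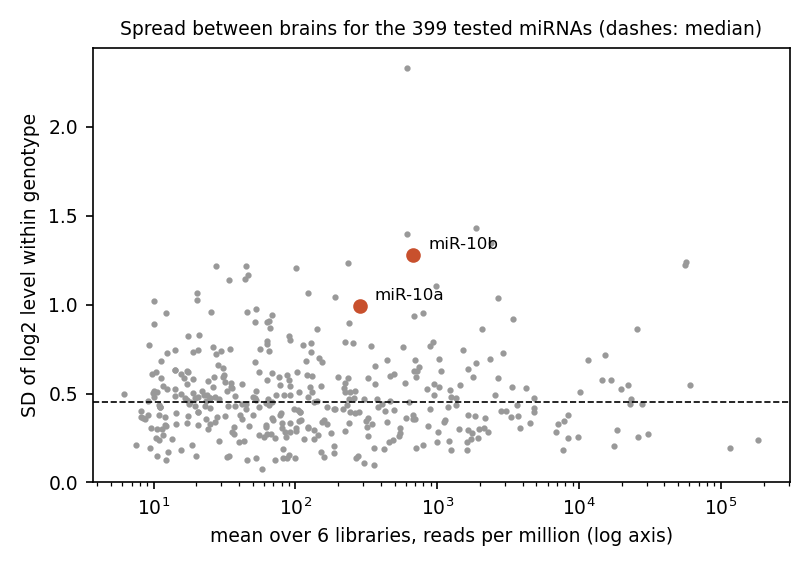
SD of log2 RPM within genotype against mean RPM (log axis), one point for each of the 399 miRNAs that passed the read minimum. miR-10b (1.28) and miR-10a (0.990), in red, lie well above the dashed median of 0.452.

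The balance between the miR-10 paralogs does not depend on scaling to library size, since both are read in the same library. Reads on miR-10a came to 43.9%, 37.3% and 37.4% of those on miR-10b in wild type and to 68.8%, 35.5% and 58.4% in Adar2-/-. Thus 2 of the 3 Adar2-/- brains lay above all wild-type brains and 1 lay below them. The log2 ratio averaged -1.34 ± 0.136 in wild type and -0.936 ± 0.496 in Adar2-/- (SD, n = 3 each), a difference of 0.41 (two-sided exact permutation p = 0.4). This difference was 0.21 without Adar2-/- replicate 1 and 0.68 without Adar2-/- replicate 2. With 3 against 3 libraries the smallest p this test allows is 0.1.

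miR-196a, made from hairpins in the Hoxb and Hoxc clusters, was the one member with at least 10 reads per library whose groups did not overlap. It was read at 1.93, 2.81 and 3.71 RPM in wild type (24, 64 and 87 reads) and at 3.86, 5.47 and 5.47 RPM in Adar2-/- (72, 129 and 131 reads). The gap between the groups was narrow, as the lowest Adar2-/- library stood 1.04 times above the highest wild-type library. The means were 2.81 ± 0.889 and 4.93 ± 0.929 RPM (SD, n = 3 each), a ratio of 1.75, and the exact permutation test gave its smallest possible p of 0.1. In the edgeR fit with a minimum of 10 reads, the log2 fold change was 0.80 (SE 0.376, unadjusted p = 0.0568, adjusted p = 0.982), so the difference did not pass. The share called in that fit was also 0%, of 608 miRNAs, where 20 had p below 0.05 before adjustment.

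The direction of miR-196a was the same with each of the other scalings tried, and the groups stayed apart under all of them, with ratios of means between 1.67 and 1.72. Leaving out any 1 library gave log2 differences between 0.59 and 1.05. By replicate number its ratio of Adar2-/- to wild type was 2.00, 1.95 and 1.48. This pattern was not rare: 2.80% of the 608 miRNAs had every Adar2-/- library above every wild-type library, and 10.2% were higher in Adar2-/- at all 3 replicate numbers. Among the 5 members of this depth, 1 met either criterion.

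miR-196b, the Hoxa paralog with the same seed, was read at 1.93, 2.63 and 2.85 RPM in wild type and 4.18, 2.54 and 2.34 RPM in Adar2-/-. Its highest library was Adar2-/- replicate 1, the library in which miR-10a and miR-10b were lowest, and the other 5 libraries overlapped. The means were 2.47 ± 0.484 and 3.02 ± 1.01 RPM (SD, n = 3 each), and the edgeR log2 fold change was 0.27 (SE 0.376, adjusted p = 0.982). Summed over both paralogs the log2 fold change was 0.58 (SE 0.314, edgeR adjusted p = 0.981).

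As a share of the reads on the pair, miR-196a took 50%, 51.6% and 56.5% in wild type. In Adar2-/- it took 48%, 68.3% (exact 95% interval 61.1% to 74.8%) and 70.1% (62.9% to 76.5%). Replicates 2 and 3 of Adar2-/- thus lay above the wild-type libraries and replicate 1 below them, but counting error did not resolve this order fully. Intervals of wild-type replicates 1 (35.2% to 64.8%) and 3 (48.3% to 64.5%) overlapped those of Adar2-/- replicates 2 and 3. That of wild-type replicate 2 (42.5% to 60.7%) did not. The interval of Adar2-/- replicate 1 (39.8% to 56.3%) overlapped that of every wild-type library. The log2 ratio of miR-196a to miR-196b averaged 0.156 ± 0.195 in wild type and 0.734 ± 0.737 in Adar2-/- (SD, n = 3 each), a difference of 0.58 with a two-sided exact permutation p of 0.4. It was 1.00 without Adar2-/- replicate 1, and 0.34 without Adar2-/- replicate 3.

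**Figure D5:**
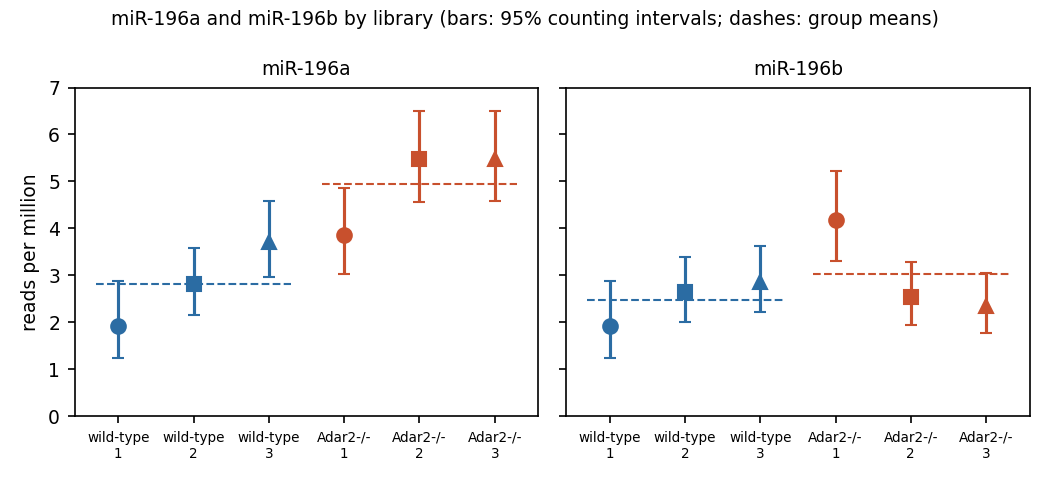
RPM of miR-196a and miR-196b in each library, with exact 95% counting intervals and a dashed line at each group's mean. For miR-196a the Adar2-/- libraries lie at 3.86 to 5.47 RPM and the wild-type libraries at 1.93 to 3.71 RPM, whereas for miR-196b the groups overlap.

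The passenger arms gave some information on which hairpins were read. Of the 27 reads on passenger arms of miR-196a, 22 were on miR-196a-2*, from the Hoxc hairpin, and 5 on miR-196a-1*, from the Hoxb hairpin. That is 81.5% for the Hoxc copy over the pooled libraries (exact 95% interval 61.9% to 93.7%, counting error only). miR-196a-2* had 1, 5 and 3 reads in wild type and 5, 3 and 5 in Adar2-/-. The arms differ in sequence, so their counts do not give the output of each hairpin directly.

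miR-10a* had 33, 28 and 21 reads in wild type and 10, 87 and 37 in Adar2-/-, or 2.65, 1.23 and 0.895 RPM and 0.536, 3.69 and 1.55 RPM. Like both main arms of miR-10, it was lowest in Adar2-/- replicate 1 and highest in Adar2-/- replicate 2. It amounted to between 0.335% and 1.25% of miR-10a. The log2 ratio of the arms was -7.22 ± 0.951 in wild type and -7.51 ± 0.290 in Adar2-/- (SD, n = 3 each), a difference of -0.29 with a two-sided exact permutation p of 0.7, and this difference turned to 0.17 without wild-type replicate 1.

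miR-10b* was rarer beside its main arm, at 0.0889% to 0.474% of miR-10b. It had 9, 29 and 18 reads in wild type and 14, 32 and 25 in Adar2-/-, or 0.723, 1.27 and 0.767 RPM and 0.751, 1.36 and 1.04 RPM. Its highest-to-lowest range of 1.88-fold was smaller than the 9.64-fold of miR-10b itself. The groups overlapped (two-sided exact permutation p = 0.6), and in the edgeR fit with no read minimum the log2 fold change was 0.18 (adjusted p = 0.988).

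miR-615, from the intron of Hoxc5, was read mainly from its 3p arm. miR-615-3p had 9, 27 and 6 reads in wild type and 7, 23 and 31 in Adar2-/-, or 0.723, 1.19 and 0.256 RPM and 0.375, 0.975 and 1.295 RPM. The groups overlapped, and in the library with 6 reads the upper bound of the counting interval lay 118% above the value. miR-615-5p had 1 read in wild type and 4 in Adar2-/-, too few for a comparison.

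The closest patterns outside the families were looked up among the 397 other miRNAs past the read minimum, by Pearson's r of log2 RPM over the 6 libraries. For miR-10b these were miR-181d (0.842), miR-411 (0.813), miR-206 (0.795), miR-466d-3p (0.787) and miR-501-3p (0.777). For miR-10a they were miR-501-3p (0.856), miR-409-5p (0.808), miR-195 (0.807), miR-672* (0.778) and miR-499 (0.774). None reached 0.9, and the median r was 0.21 for either. Their r with each other, 0.953, was higher than with any of these miRNAs. miR-206, best known from skeletal muscle, was read at 976, 1446 and 1404 RPM in wild type and at 710.2, 1496 and 1441 RPM in Adar2-/-, a range far narrower than that of miR-10b.

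The miR-10 superfamily also has members outside the Hox clusters, miR-99a, miR-99b, miR-100, miR-125a-5p and miR-125b-5p. All 5 passed the read minimum and 0 were called, with log2 fold changes between -0.73 and 0.28 (median 0.05, against 0.0023 over all 399). Their summed level lay between 28979 and 36005 RPM in wild type and between 30774 and 35147 RPM in Adar2-/-. Taken singly, they spanned 1.39-fold (miR-100) to 2.43-fold (miR-99b) from the lowest to the highest library, against 9.64-fold for miR-10b and 4.98-fold for miR-10a.

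Markers of brain and other cell types were set beside these values. The neuronal miRNAs miR-124, miR-128, miR-9, miR-137 and miR-138 were all read, at a summed 127172 to 173598 RPM in wild type and 132984 to 146590 RPM in Adar2-/-, mostly miR-9. Their log2 fold changes ran from -0.25 (miR-9) to 0.98 (miR-137) with a median of 0.56, and 0 of the 5 were called. The oligodendrocyte miRNAs miR-219-5p and miR-338-3p, which mark myelin-forming cells, summed to 284 to 573 and 376 to 708 RPM. Their log2 fold changes were 0.20 and 0.28. The opposite arms, miR-219-3p and miR-338-5p, were not in the list and went the other way, at -0.19 and -0.22. Of these arms miR-219-3p had the higher mean level, 893 RPM against 151 RPM for miR-219-5p. The pineal and retinal miRNAs miR-182, miR-183 and miR-96 summed to 108156 to 155374 RPM in wild type and 19159 to 186903 RPM in Adar2-/-, with replicate 3 lowest and replicate 1 highest. Epithelial markers (5 of the miR-200 family) had their lowest and highest sum in the same libraries, 738 RPM in Adar2-/- replicate 3 and 9210 RPM in Adar2-/- replicate 1, with 4783 to 6267 RPM in wild type. The summed ranges in wild type and Adar2-/- were 1289 to 7459 and 1557 to 4714 RPM for neuroendocrine markers (3 miRNAs), 838 to 1584 and 1064 to 1622 RPM for choroid plexus (2), 1253 to 3561 and 2166 to 2955 RPM for blood (6), 2340 to 3140 and 2254 to 3390 RPM for muscle (4), and 52641 to 80298 and 50321 to 61659 RPM for vessels (4). No marker in these sums was at 0, and 0 of those tested were called. Only 4 of the 6 blood markers passed the read minimum and were tested. For choroid plexus only miR-204 was tested, so that list's median is its log2 fold change of 0.22. A further listed choroid plexus marker, miR-448, was left out because it was counted under the name miR-448-3p. That miRNA had a log2 fold change of -0.42. In the lists other than the neuronal one, median log2 fold changes lay between -0.30 (pineal and retinal) and 0.24 (oligodendrocyte). Among the neuroendocrine markers, log2 fold changes ran from -4.09 (miR-375) to 0.42 (miR-7a). In the edgeR test miR-375 had an unadjusted p of 0.011 and an adjusted p of 0.988. It had the widest range of the tested miRNAs, 76.9-fold from the lowest to the highest library. Its SD of log2 RPM was 3.29 in wild type and 0.235 in Adar2-/-. Whether these differences between brains bear on the levels of miR-10 or miR-196 was not tested.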

How the data were processed

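The authors removed adaptors with Cutadapt and mapped reads to mature miRNA sequences with NextGenMap at 90% identity or more. They deposited 3 tables of read counts, each with 1 wild-type and 1 Adar2-/- library, without normalization. How reads with several equally good hits became whole counts was not given in the sources used here. Each column was assigned by its genotype and its table's replicate number, and 12 blank lines were dropped. Depth was 12449633 to 23471819 reads in wild type and 18645810 to 23935544 in Adar2-/-.

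A minimum of 100 reads per library left 399 miRNAs, which were tested with edgeR 4.0.16 (quasi-likelihood, Benjamini-Hochberg, threshold 0.05), with total mapped miRNA reads as library size as in the study. Rarer members, whatever their reads, and ratios with at least 10 reads on both miRNAs were compared by two-sided exact permutation (0.5 read added). The edgeR and DESeq2 fits were tested on simulated counts, only for miRNAs past the minimum of 100 reads. Alternatives were TMM, DESeq2 1.42.0, library totals that leave out the top 5 miRNAs, other minimums, a replicate block, left-out libraries and summed paralogs. All members were named, with the 5 miRNAs of highest r to miR-10a and to miR-10b. Members and marker lists were chosen with earlier results of these data known. Hairpins were placed with GENCODE annotation of NCBIM37, the build (mm9) in the submitters' processing notes. The labels do not give the age, which is from the study's methods.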

Additional observations from a re-analysis of the deposited data

How the results depend on the processing

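The absence of calls held in all settings except DESeq2 (1 miRNA) and leaving out replicate 1 of both genotypes (18 miRNAs). Those 18 were all higher in Adar2-/-, with the median miRNA shifted by 0.17 on the log2 scale. Over left-out libraries the count ran from 0 to 18. Of the members, only miR-10a and miR-10b had enough reads to be in the DESeq2 and left-out fits, and neither was called. The other members could not be called there. The count of miRNAs with 1 direction at all 3 replicate numbers was 64, and became 98 with TMM factors, 39 with at least 1.3-fold, 112 with a minimum of 10 reads, and 99 to 249 with 1 number left out, where fewer pairs have to agree. miR-10a was higher in Adar2-/- in all settings except without Adar2-/- replicate 2, with log2 fold changes of -0.083 to 0.94 over left-out libraries, and miR-10b ran from -0.72 to 0.85, below 0 without Adar2-/- replicate 2 or without replicate 2. Under the replicate block miR-10b was at -0.050, and at -0.065 with TMM factors as well; the cause was not tested. Same-numbered libraries did not deviate together over the table as a whole (correlations -0.001, -0.076 and -0.014 over 399 miRNAs), and the block called 0 miRNAs. These correlations cannot show whether same-numbered animals shared a litter or a sequencing run. For miR-10a and miR-10b, replicate 2 was the highest library in both genotypes. Leaving out 1 library moved the log2 difference of miR-10a* between -0.63 and 0.73, of miR-10b* between -0.016 and 0.43, of miR-196b between -0.0042 and 0.41 and of miR-615-3p between -0.25 and 0.85, each across 0. The arm ratio of miR-10a* to miR-10a ran from -0.78 to 0.17. miR-196a and both paralog ratios kept their direction in every setting run. For the ratios the replicate block could not change it, since the mean of paired differences equals the difference of means. Over left-out libraries the difference in log2 ratio ran from 0.21 to 0.68 for miR-10a to miR-10b and from 0.34 to 1.00 for miR-196a to miR-196b. The paralog sum of miR-196 was fitted although it was under 100 reads in wild-type replicate 1. At 24 to 131 reads, the upper bound of the counting interval of miR-196a lay 18.7% to 48.8% above the value.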
